A study of Mus musculus with 12 samples.

Results

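Astrocytes are the glial cells that take up glutamate from the synapse, convert it to glutamine, buffer water and ions around vessels and synapses, and couple to one another through gap junctions. In the hypothalamus they also sense glucose and hormones, and when the tissue is injured or inflamed they become reactive, a state in which Gfap and a set of secreted and stress-response genes typically go up. The genes described here are 10 widely used astrocyte markers, chosen as every array probe that carries one of their symbols: the glutamate transporters Slc1a2 (GLT-1) and Slc1a3 (GLAST), glutamine synthetase (Glul), the water channel Aqp4, connexin 43 (Gja1), the intermediate filament Gfap, the calcium-binding protein S100b, the glycolytic enzyme aldolase C (Aldoc), the folate enzyme Aldh1l1, and angiotensinogen (Agt), the precursor of angiotensin peptides. Several of them are also made by tanycytes, ependymal cells or oligodendrocytes.

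These 10 genes were read by 29 of the 56605 probes of the array. Hypothalamus RNA came from 12 male C57BL/6 mice, 3 per group: wild-type littermates at rest (WT), homozygous Asmt knockouts at rest (KO), wild types after swimming training (trained WT) and swimming-trained knockouts (KE). The knockouts descended from Cas9 founders with a deletion of 20 bp, backcrossed for 3 generations; all mice, controls included, had been reared for 3 weeks before training and are labelled as 6 to 7 weeks old, the age at which training began. Asmt makes the last enzyme of melatonin synthesis, and C57BL/6 mice are known for low melatonin production, which limits them as the wild-type side of this comparison. The labels name no litters or separate cohorts, so the p-values measure the spread between these 12 samples. The study asked how the loss of Asmt and swimming alter the hypothalamic transcriptome.

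Asmt itself has 1 probe, which was well above background on 0 of the 12 arrays, so the genotype was not checked by it. The arrays lay on 2 slides. Slide 1 held all WT arrays with KO replicates 1 and 2, and slide 2 held KO replicate 3 with all trained WT and KE arrays; slides differed for many genes, with 21.8% of tested probes not overlapping between them. Only KE versus trained WT was measured wholly within 1 slide. For KE versus KO, a fit with the slide as a block compares KE with KO replicate 3 alone among mice of the same slide, and for trained WT or KE versus WT it reaches the WT group only through the KO mice. No spot was saturated, and the share of spots well above background on an array ran from 61.6% to 67.9%.

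Of the 29 probes, 21 were well above background on all 12 arrays, and every one of the 10 genes had at least 1 such probe. These 21 were tested. Of the other 8, 5 were probes of Gja1, and Slc1a2, Slc1a3 and Aqp4 had 1 each; 7 of the 8 were well above background on no array and the last, a Gja1 probe, on 4. For each gene the brightest tested probe stands for it below unless another is named. Aldoc and Gfap are shown with all their probes: those of Aldoc gave opposite directions, and those of Gfap moved together while 1 of them set trained WT apart. Probes of Aldh1l1, Gja1 and Aqp4 also disagreed in sign, and their values are given below. The first 30 of the 60 bases of each are printed 5′ to 3′ from the deposited table, with mm9 coordinates of the whole probe; the table names the gene but not the exon or UTR.
Aldoc A_66_P133314, chr11:78139897-78139956, plus strand: acaccccattttgcctatagtcacagccag
Aldoc A_51_P220681, chr11:78139964-78140023, plus strand: agcgccaagtcatctcacatctcacatgcc
Aldoc A_55_P2070992, chr11:78140198-78140257, plus strand: tccagccctgactcgtgctccttatgctct
Gfap A_52_P52303, chr11:102751813-102751872, minus strand: ggttatattaacagagctagcctatgctaa
Gfap A_55_P2157250, chr11:102748864-102748923, minus strand: tttgaggaactgaaacgtgttgtgttcaag

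The astrocyte markers differed little between the 4 groups. The highest and lowest array of a gene lay between 0.14 and 0.53 apart on the log2 scale, with a median range of 0.28 over the 10 genes, beside 0.30 over the 9555 tested probes at least as bright as the dimmest of them. No gene reached the screening criterion of the study, at least a 2-fold difference together with an unadjusted p no higher than 0.05, in any of 5 comparisons of groups (0 of 10 each time), where the share of all 35230 tested probes was 0.224% in KO versus WT, 1.21% for KE versus KO, 2.19% in trained WT versus WT, 0.253% in KE versus trained WT and 2.74% in KE versus WT. After Benjamini-Hochberg adjustment over all tested probes, limma called 0 of the 10 genes in each comparison, beside 0.0199% of probes in KE versus KO and 0% in the others. In the fit with the slide as a block it again called 0 of the 10, beside 0.0255% of probes in KE versus KO, 0.00852% in KO versus WT and 0% elsewhere. At an unadjusted p of at most 0.05 limma gave 1 gene in KE versus KO and 1 in KE versus WT, both times Aldoc, where 21.1% and 30.4% of all probes passed. Aldoc was lower in both, as were 13.0% and 17.9% of all probes. It gave 0 genes in KO versus WT (background 5.48%), 0 in trained WT versus WT (26.0%) and 0 in KE versus trained WT (6.66%). The methods' t-test at that p gave 0 genes in KO versus WT (3.51% of probes), 1 in KE versus KO (12.8%), 3 in trained WT versus WT (26.2%), 0 in KE versus trained WT (10.7%) and 3 in KE versus WT (33.8%). After adjustment it kept 2 genes, Aldoc and Aldh1l1, in KE versus WT, where 13.8% of probes were kept, and 0 in the others, where 4.64% were kept in trained WT versus WT and 0% in the rest. In bulk RNA, fewer astrocytes and less RNA per astrocyte cannot be told apart.

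**Figure D1:**
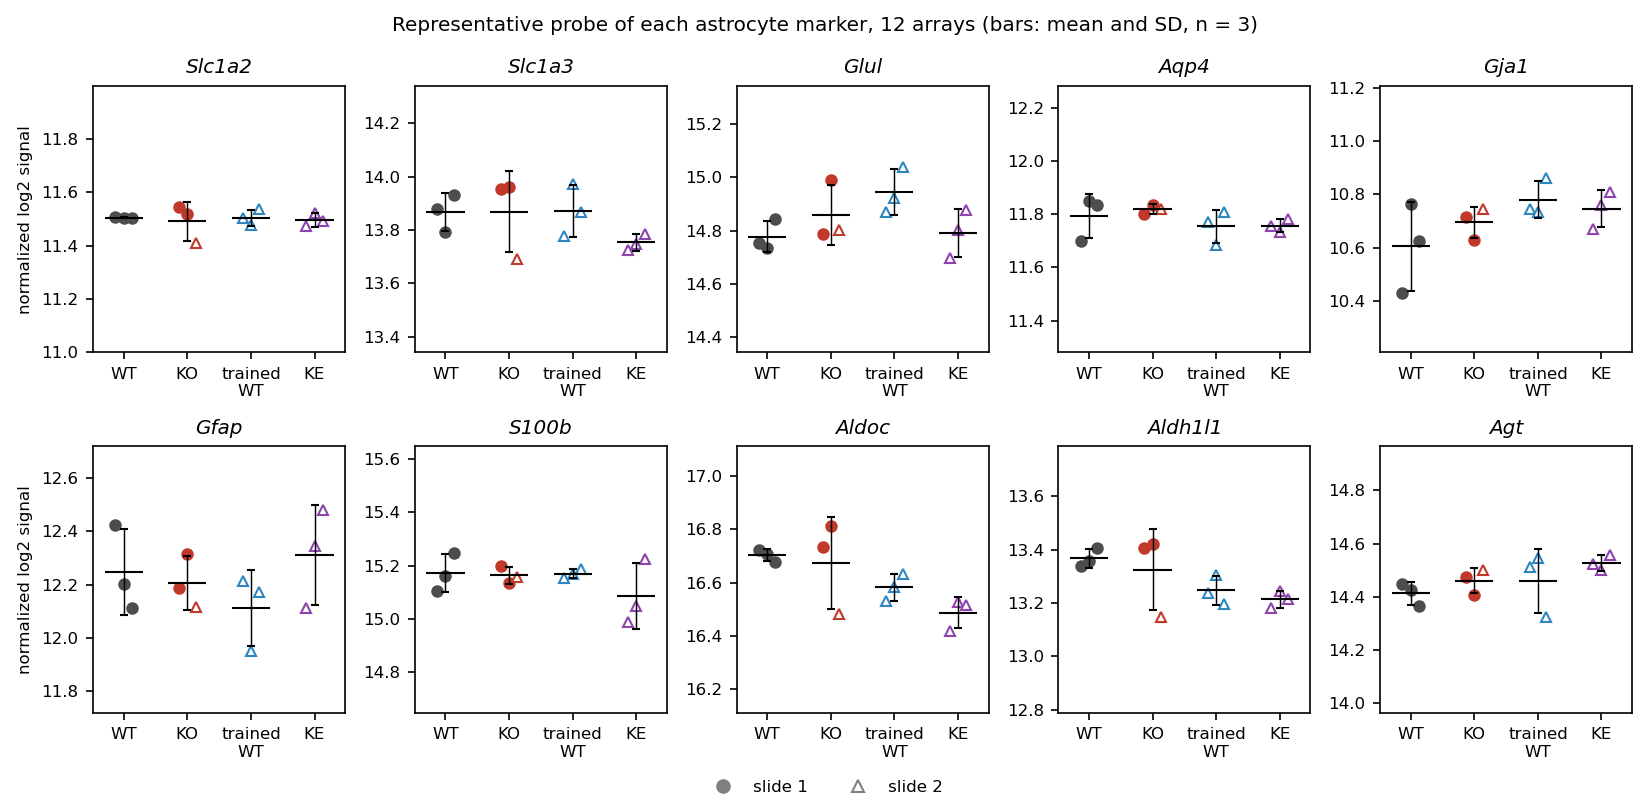
Normalized log2 signal of the representative probe of each of the 10 genes on 12 arrays, by group; each panel spans 1 log2 unit, circles are slide 1 and triangles slide 2, and the bars give mean and SD of 3 mice. Every gene stays within 0.53 log2 units, and for Aldoc and Aldh1l1 all slide 2 arrays, KO replicate 3 among them, lie below all slide 1 arrays.

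On the representative probes, the precision of 3 arrays a group was enough to bound these differences. Other tested probes of the same genes reached farther. Aqp4 A_55_P2742038 had means of 5.55 in WT and 6.06 in trained WT, and Aldoc A_55_P2070992 had 16.45 in WT and 16.79 in KE mice. Fitted log2 fold changes of the representative probes lay between -0.22 and 0.20 over the 50 pairs of gene and comparison, that is, between 0.861-fold and 1.15-fold. The 95% intervals from limma reached at most from -0.40 to 0.46, or 0.759-fold to 1.38-fold, so that 50 of 50 lay inside a 1.5-fold change in either direction. With the slide as a block the intervals widened to between -0.49 and 0.68, and 49 of 50 lay inside 1.5-fold and 50 of 50 inside 2-fold; Gfap in KE versus WT was the exception. The median over the 10 genes was -0.0036 in KO versus WT, -0.07 for KE versus KO, -0.00092 in trained WT versus WT, -0.03 in KE versus trained WT and -0.02 in KE versus WT. Over all tested probes it was -0.01, -0.04, -0.04, -0.01 and -0.07. With the slide as a block the medians of the 10 genes were 0.04, 0.02, 0.11, -0.03 and 0.09, so the sign of all but KE versus trained WT turned. In the order just given, 5, 4, 5, 3 and 4 of the 10 genes were fitted higher, where 46.1%, 41.5%, 41.4%, 46.9% and 37.4% of all probes were.

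**Figure D2:**
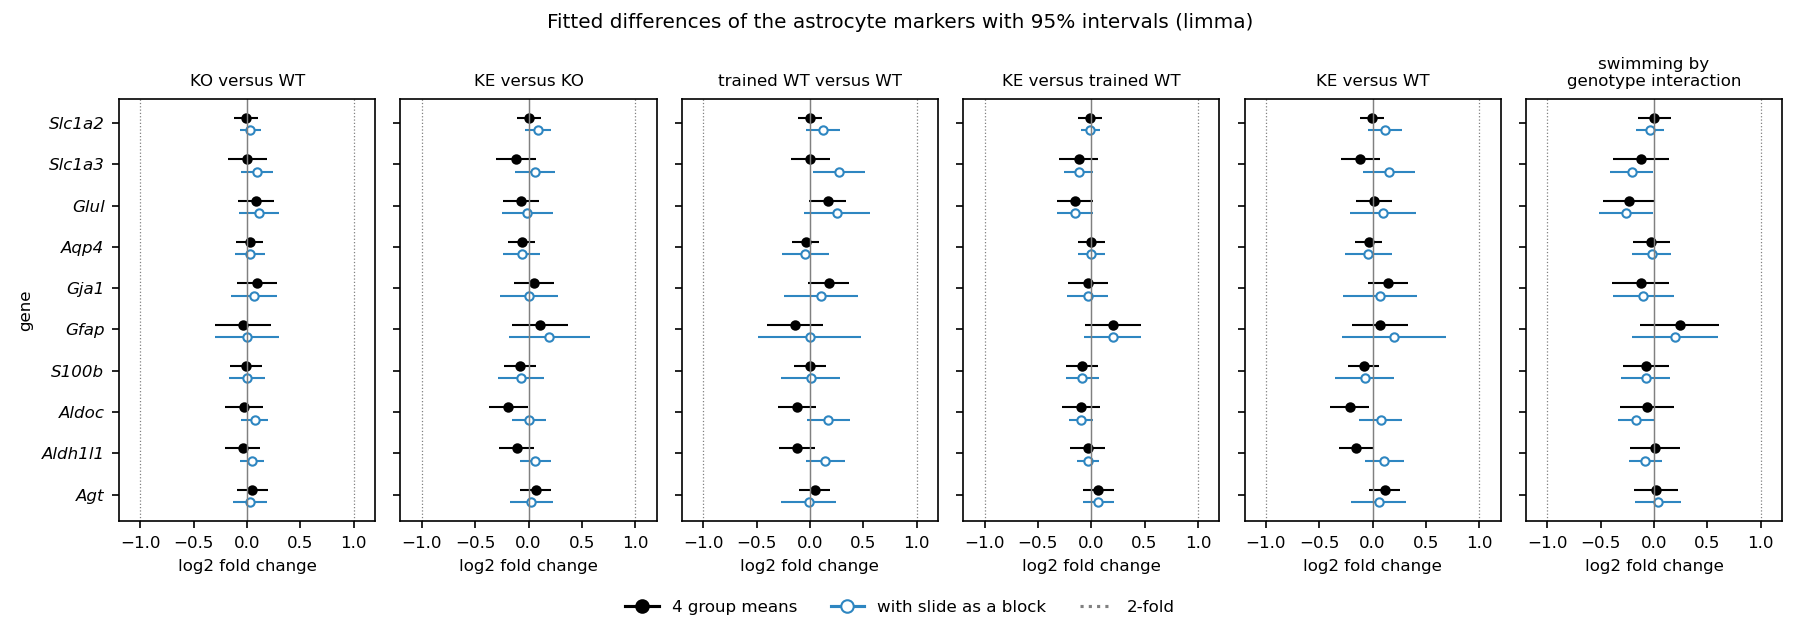
Fitted log2 fold change with its 95% interval for each gene (rows) in 5 comparisons and in the swimming by genotype interaction, from the model of 4 group means (black) and with the slide as a block (blue, open); dotted lines mark 2-fold. All 60 intervals of each fit lie inside 2-fold, and those of Aldoc, Aldh1l1 and Slc1a3 in trained WT or KE versus WT turn from lower or near 0 to higher when the slide is a block.

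Of the glutamate-handling genes, Slc1a2 varied least, and neither Glul nor Slc1a3 passed the test in any comparison. Slc1a2, the main glutamate transporter of the adult forebrain, was at 11.50 ± 0.0022 (SD, n = 3) in WT, 11.49 ± 0.07 in KO, 11.51 ± 0.03 in trained WT and 11.50 ± 0.03 in KE mice, and over 12 arrays it covered 0.14 log2 units, the least of the 10 genes. Its 95% interval in KO versus WT was -0.13 to 0.10. A second Slc1a2 probe, at chr2:102559160-102559219, was well above background on 0 arrays.

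Slc1a3, the transporter that marks astrocytes and radial glia, was at 13.88, 13.79 and 13.93 in WT, 13.95, 13.96 and 13.69 in KO, 13.78, 13.97 and 13.87 in trained WT and 13.72, 13.75 and 13.79 in KE mice. Its lowest array was KO replicate 3, the KE mice and trained WT replicate 1 came next, and KE lay just below WT without overlap. A second probe, A_52_P378975, correlated with it at r of 0.34 over the 12 arrays. Fitted log2 differences were -0.11 in KE versus WT (standard error 0.08, adjusted p = 0.364, limma) and -0.12 in KE versus trained WT (adjusted p = 0.82). Under the slide block it was 0.15 in KE versus WT and 0.27 in trained WT versus WT (adjusted p = 1 and 0.797).

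Glul, which turns glutamate and ammonia into glutamine, was at 14.75, 14.74 and 14.84 in WT, 14.79, 14.99 and 14.80 in KO, 14.87, 14.92 and 15.04 in trained WT and 14.70, 14.80 and 14.88 in KE mice. All trained WT arrays lay above all WT arrays, as groups did not overlap for 37.6% of all probes in that comparison, while KE and KO overlapped. The log2 fold change was 0.17 in trained WT versus WT (95% interval from just under 0 to 0.34, adjusted p = 0.20, limma) and -0.07 in KE versus KO (-0.24 to 0.10, adjusted p = 0.627). The difference between these 2 swimming effects, the interaction, was -0.24 (standard error 0.11, adjusted p = 0.648), and -0.26 (adjusted p = 0.452) with the slide as a block, so it did not pass the test in either fit. The other Glul probes correlated with this one at Pearson r of 0.81 (A_66_P134479) and 0.62 (A_52_P143866) over the 12 arrays, which share slide and normalization, and at 0.89 and 0.32 over the 7 arrays of slide 2. On these probes trained WT overlapped with WT, with differences of 0.10 and 0.06, and KO had the highest mean.

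On their representative probes, the membrane genes of the astrocyte endfoot and syncytium also stayed close to their WT level. Aqp4, the water channel of perivascular endfeet, was at 11.79 ± 0.08 (SD, n = 3) in WT, 11.82 ± 0.02 in KO, 11.75 ± 0.06 in trained WT and 11.76 ± 0.02 in KE mice. All KE arrays lay below all KO arrays, by -0.06 on average (standard error 0.06, adjusted p = 0.536, limma), and Aqp4 was the 1 of 10 genes without overlap there, beside 21.5% of all probes. Another Aqp4 probe, A_55_P2742038, ran between 5.15 and 6.25 with KO replicate 3 the highest, and its log2 fold change in trained WT versus WT was 0.51 (standard error 0.27, adjusted p = 0.253). On it all trained WT arrays lay above all WT arrays, as for 15.4% of all probes. The third tested probe, A_52_P625527, had means of 9.45 in WT, 9.43 in KO, 9.31 in trained WT and 9.41 in KE mice. A_55_P2742038 correlated at r of -0.43 with the first probe and -0.64 with the third over the 12 arrays. Gja1, the main connexin of astrocytes, was at 10.61 ± 0.17 in WT, 10.70 ± 0.06 in KO, 10.78 ± 0.07 in trained WT and 10.75 ± 0.07 in KE mice. On this probe the groups overlapped in every comparison, and the difference farthest from 0 was 0.17 in trained WT versus WT (standard error 0.08, adjusted p = 0.219), against 0.10 with the slide as a block. The Gja1 probe A_55_P2800487 went the other way, at 8.55, 8.54 and 8.43 in WT, 8.37, 8.34 and 8.39 in KO, 8.39, 8.45 and 8.27 in trained WT and 8.27, 8.36 and 8.46 in KE mice. KO lay wholly below WT on it, and its differences from WT were -0.14 in KO, -0.13 in trained WT and -0.14 in KE mice (adjusted p = 0.849, 0.241 and 0.191, limma). The third tested probe, A_55_P2741907, differed from WT by -0.09, 0.06 and -0.16 in the same order. With the first probe these correlated at r of -0.38 and -0.20 over the 12 arrays, so that no single direction for Gja1 was given.

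Gfap, the filament protein whose rise is the usual sign of reactive astrocytes, read 12.43, 12.20 and 12.11 in WT, 12.19, 12.31 and 12.12 in KO, 12.21, 11.95 and 12.17 in trained WT and 12.11, 12.34 and 12.48 in KE mice. The groups overlapped in all 5 comparisons. The log2 fold change was -0.04 in KO versus WT (95% interval -0.30 to 0.22), -0.14 in trained WT versus WT (-0.40 to 0.13), 0.11 in KE versus KO (-0.16 to 0.37) and 0.20 in KE versus trained WT (-0.06 to 0.46), and none passed the test (lowest adjusted p in these was 0.473, limma).

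The second Gfap probe, A_55_P2157250, tracked the first across arrays (r of 0.90 over 12 arrays and 0.94 over the 7 arrays of slide 2). It read 11.72, 11.49 and 11.37 in WT, 11.50, 11.47 and 11.36 in KO, 11.29, 11.09 and 11.25 in trained WT and 11.32, 11.53 and 11.70 in KE mice. Its 3 trained WT arrays were the lowest of all 12 and overlapped with no other group. The log2 fold change was -0.32 in trained WT versus WT (standard error 0.11, unadjusted p = 0.0193, adjusted p = 0.13, limma) and 0.31 in KE versus trained WT (unadjusted p = 0.0214, adjusted p = 0.695). The interaction was 0.39 (standard error 0.16, adjusted p = 0.607). Under the slide block the values were -0.19, 0.31 and 0.35, with adjusted p of 0.878, 0.428 and 0.502. In both probes trained WT had the lowest group mean and KO the next, while WT and KE of the second, at 11.53 ± 0.18 and 11.52 ± 0.19 (SD, n = 3), were not apart beyond their spread.

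S100b, a calcium-binding protein of astrocytes and some oligodendrocytes, was at 15.17 ± 0.07 (SD, n = 3) in WT, 15.16 ± 0.03 in KO, 15.17 ± 0.02 in trained WT and 15.09 ± 0.12 in KE mice. KE replicate 1 was its lowest array at 14.99 and KE replicate 3 stood at 15.22, so the spread within KE overlapped with each of the other groups. Agt, whose product astrocytes secrete, was at 14.41 ± 0.04 in WT, 14.46 ± 0.05 in KO, 14.46 ± 0.12 in trained WT and 14.53 ± 0.03 in KE mice. The KE arrays, from 14.50 to 14.56, lay above the WT arrays, from 14.37 to 14.45, a fitted difference of 0.11 log2 units (standard error 0.06, adjusted p = 0.255, limma).

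The representative probes of the metabolic enzymes Aldoc and Aldh1l1 separated by slide. Aldh1l1, a cytosolic folate enzyme used as a pan-astrocyte marker, read 13.34, 13.36 and 13.41 in WT, 13.41, 13.42 and 13.15 in KO, 13.24, 13.30 and 13.20 in trained WT and 13.18, 13.24 and 13.22 in KE mice. All 5 arrays of slide 1 lay above all 7 of slide 2, and KO replicate 3 differed from the mean of the other KO mice, whose slide it did not share, by -0.27. The log2 fold change was -0.15 in KE versus WT (standard error 0.07, adjusted p = 0.188, limma) and -0.12 in trained WT versus WT (adjusted p = 0.317). The slide block turned these into 0.11 and 0.15 (adjusted p = 1 and 0.822), and within slide 2, KE and trained WT differed by -0.03 (95% interval -0.20 to 0.13). The other tested Aldh1l1 probe, A_66_P128931, did not follow: it read 7.18, 7.18 and 7.21 in WT, 7.36, 7.37 and 7.25 in KO, 7.36, 7.26 and 7.43 in trained WT and 7.16, 7.29 and 7.51 in KE mice. KO and trained WT lay above WT on it, and its slides overlapped. Against WT it differed by 0.13 in KO, 0.16 in trained WT and 0.13 in KE mice (adjusted p = 0.849, 0.263 and 0.324, limma), and r between both probes was -0.15 over the 12 arrays. No single direction for Aldh1l1 was given by its probes.

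Aldoc, the brain aldolase, gave the only 2 differences of a representative probe with an unadjusted p of at most 0.05. Its probe A_51_P220681 read 16.72, 16.71 and 16.68 in WT, 16.73, 16.81 and 16.48 in KO, 16.53, 16.59 and 16.63 in trained WT and 16.42, 16.53 and 16.52 in KE mice. As for Aldh1l1, every array of slide 2 lay below every array of slide 1, with KO replicate 3 among the former. The log2 fold change was -0.22 in KE versus WT (standard error 0.08, unadjusted p = 0.0232, adjusted p = 0.113, limma) and -0.19 in KE versus KO (unadjusted p = 0.0417, adjusted p = 0.223). Under the slide block they were 0.08 and 0.01 (adjusted p = 1 and 0.992).

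Leaving out KO replicate 3 moved both genes past the threshold. Without it, when every KO array left was on the other slide than the KE arrays, Aldoc differed by -0.29 log2 units in KE versus KO (adjusted p = 0.00699, limma) and Aldh1l1 one of -0.20 (adjusted p = 0.0213). In KE versus WT the differences were the same as with all arrays, -0.22 and -0.15, and the adjusted p became 0.015 and 0.0389. Of all probes, 24.3% were called in KE versus KO and 23.2% in KE versus WT without that array. With that array kept and arrays weighted by their quality, limma called 3 of the 10 genes for KE versus KO (Slc1a3, Aldh1l1 and Aldoc), beside 34.5% of probes, and 2 for KE versus WT (Aldh1l1 and Aldoc), beside 30.0%. Fitted on those groups alone, KE versus WT gave 1 gene, Aldoc, beside 17.6% of probes. These counts stood near the background of the same fits. Over all alternatives the adjusted p of Aldoc ran from 0.00575 to 0.992 in KE versus KO and from 0.015 to 1 in KE versus WT, and that of Aldh1l1 from 0.0169 to 0.981 and from 0.0281 to 1. Group and slide cannot be told apart in KE versus WT.

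The 3 Aldoc probes did not move together. The probe A_55_P2070992, whose start lies 234 bases downstream of that of A_51_P220681, read 16.35, 16.58 and 16.42 in WT, 16.40, 16.26 and 16.90 in KO, 16.77, 16.65 and 16.56 in trained WT and 16.85, 16.80 and 16.72 in KE mice. It was high where the other was low: its log2 fold change in KE versus WT was 0.35 (standard error 0.14, unadjusted p = 0.0381, adjusted p = 0.142, limma), and in KE versus KO 0.27 (adjusted p = 0.295). The correlation between both was -0.95 over 12 arrays and -0.89 over the 7 arrays of slide 2 alone. The probe A_66_P133314, with its start 67 bases upstream of that of A_51_P220681, lay between 15.66 and 15.90 and differed by 0.13 in KE versus WT (standard error 0.06, adjusted p = 0.179). Its correlation was -0.69 with A_51_P220681 and 0.73 with A_55_P2070992 over 12 arrays. Under the slide block the KE versus WT differences were -0.23 for A_55_P2070992 and -0.01 for A_66_P133314, with the sign turned in both. The 3 probes had GC contents of 46.7%, 51.7% and 45.0% in order along the chromosome. Their part in the disagreement was not tested, and no single direction for Aldoc was given by its probes.

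**Figure D3:**
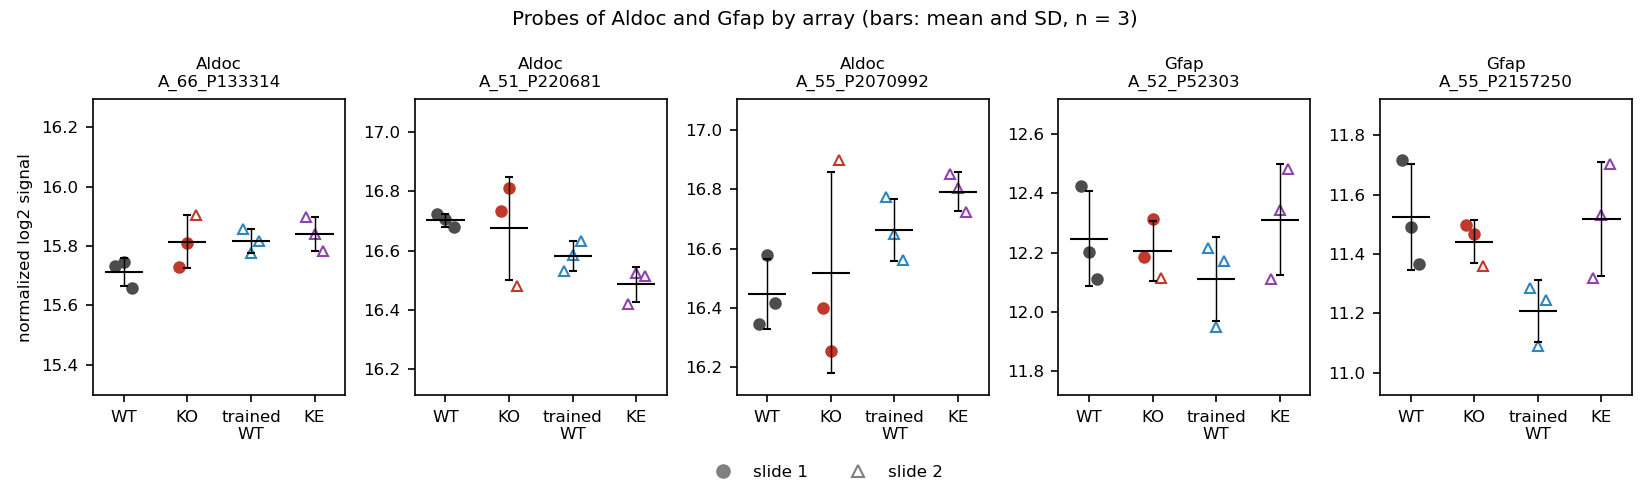
Normalized log2 signal of the 3 Aldoc probes, in order along the chromosome, and of both Gfap probes, by group; circles are slide 1, triangles slide 2, bars mean and SD of 3 mice, and each panel spans 1 log2 unit. Aldoc A_51_P220681 is low on slide 2 arrays where A_55_P2070992 is high, with KO replicate 3 at 16.48 and 16.90, and the trained WT arrays of Gfap A_55_P2157250 are its lowest.

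Counted over the representative probes of the 10 genes, groups did not overlap for 0 genes in KO versus WT, 1 when KE was set against KO (Aqp4 lower), 3 in trained WT versus WT (Aldh1l1 and Aldoc lower, Glul higher), 1 in KE versus trained WT (Aldoc lower) and 4 in KE versus WT (Slc1a3, Aldh1l1 and Aldoc lower, Agt higher). Over all tested probes the shares were 8.58%, 21.5%, 37.6%, 19.5% and 44.1%, so these counts stood near or under the background. By direction the shares were 15.4% lower in KE versus KO, 22.2% lower and 15.4% higher in trained WT versus WT, 11.2% lower in KE versus trained WT, and 27.7% lower and 16.4% higher in KE versus WT. Other probes of Aldoc and Aldh1l1 separated groups the opposite way. Aldoc A_55_P2070992 and A_66_P133314 were higher without overlap in KE versus WT. So were Aldoc A_66_P133314 and Aldh1l1 A_66_P128931 in trained WT versus WT. In the swimming by genotype interaction, fitted values ran from -0.24 (Glul) to 0.24 (Gfap), and 0 genes passed at an unadjusted p of at most 0.05 beside 7.75% of probes. In that fit 4 of 10 were above 0 beside 48.4%, 0 reached the criterion beside 0.593%, and 0 had an adjusted p under 0.05 beside 0%. With the slide as a block, 2 of the 10 passed at an unadjusted p of at most 0.05 in limma, beside 10.8% of probes.

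The genes did not vary as a block from mouse to mouse. Over the 12 arrays the 45 pairs of genes had Pearson r from -0.61 to 0.88 with a median of 0.13, and over deviations from the group means from -0.63 to 0.86 with a median of 0.13. The highest were Aldh1l1 with Aldoc (0.88) and Slc1a3 with Aldh1l1 (0.79), and the lowest was Aldoc with Agt (-0.61). The Aldoc values hold for probe A_51_P220681, which itself correlated at -0.95 with the Aldoc probe A_55_P2070992. These arrays share 2 slides and 1 normalization, and the 3 genes of the highest correlations were also those with the lowest KO replicate 3 against the other KO mice, from -0.29 to -0.27. The mean of the 10 genes, each centred on its own mean, ran from -0.09 in KE replicate 1 to 0.06 in KO replicate 2.

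The non-member genes most like that mean over the 12 arrays, of 18256 compared, were Fdxacb1 (r = 0.93), Rtkn2 (0.92), B3galt5 (0.91), Ndufb5 (0.89) and 5730455P16Rik (0.89). After group means were subtracted they were Itfg3 (0.97), 6430710C18Rik (0.96), Rtkn2 (0.96), Tmem81 (0.95) and Tmcc2 (0.95).

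A further 24 astrocyte genes, among them transporters, the transcription factor Sox9 and the receptor Fgfr3, were well above background on all 12 arrays. None passed the criterion or adjustment in limma (0 of 24 in each comparison), and their medians were 0.05 in KO versus WT, -0.05 for KE versus KO, -0.02 in trained WT versus WT, -0.04 in KE versus trained WT and -0.08 in KE versus WT. At an unadjusted p of at most 0.05 there were 1, 8, 8, 2 and 8 of them in these comparisons, where 5.48%, 21.1%, 26.0%, 6.66% and 30.4% of all probes passed. Of these, 0, 2, 5, 0 and 4 were higher, beside 2.39%, 8.04%, 11.6%, 2.19% and 12.5% of all probes, and the others were lower. F3, tissue factor of the clotting cascade, had the lowest value in KE versus KO, -0.47 (standard error 0.15, adjusted p = 0.163), but -0.13 with the slide as a block and -0.29 without KO replicate 2, its highest array at 13.53. It was also lowest in KE versus trained WT, -0.36 (adjusted p = 0.733). Atp1b2, the glial beta subunit of the sodium pump, had the highest in KE versus WT, 0.81 (standard error 0.22, adjusted p = 0.064), and -0.0013 with the slide as a block. Fgfr3 was at 0.43 there (adjusted p = 0.0624) and 0.04 with the block. Slco1c1 was the lowest in KE versus WT, at -0.31 (adjusted p = 0.0624, limma), or -0.12 with the block. In KE versus KO, Atp1b2 and Fgfr3 were the highest, at 0.55 and 0.26 (adjusted p = 0.207 and 0.215, limma). With the block they were at 0.0051 and -0.0014.

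Of 12 genes that reactive astrocytes raise, 11 were tested; Steap4 was well above background on 0 arrays. None was called by limma after adjustment (0 of 11 in each comparison), but 1 mouse stood apart. In KO replicate 2, Lcn2, a secreted iron-siderophore binder of the acute phase, was at 11.02, against 6.07 to 7.26 on the other 11 arrays. On the same array Osmr, the oncostatin M receptor, was at 9.62 against 7.92 to 8.72 elsewhere, Timp1, a metalloproteinase inhibitor, at 8.38 against 7.17 to 7.68, and Cp, the copper protein ceruloplasmin, at 9.73 against 8.46 to 9.03. Counting Cxcl10 and Hspb1, 6 of the 11 genes were highest in that mouse, where 12.9% of all tested probes were. Hspb1 led by little, at 13.04 against 12.99 in trained WT replicate 1. The others, S1pr3, Aspg, Serpina3n, Cd44 and Vim, were not highest there. Against the median of the other arrays they differed by 0.38, 0.24, 0.04, -0.06 and -0.15 in that order. On their representative probes, the astrocyte markers of KO replicate 2 did not stand apart in this way. Gfap stood at 12.31, inside the WT range, and 2 of the 10, Aldoc and Aldh1l1, were highest there. On Aldoc A_55_P2070992 the same array was the lowest, at 16.26. On Aldh1l1 A_66_P128931 it stood at 7.37, against 7.51 in KE replicate 3.

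This mouse set the reactive list's value in the comparisons with KO. The median log2 difference of the 11 genes was 0.15 in KO versus WT with 10 higher, beside 46.1% of all probes, and 0.0033 with 6 higher without KO replicate 2. In KE versus KO it was -0.27 with 9 lower, where 41.5% of all probes were fitted higher, and -0.02 with 6 lower without KO replicate 2. The share of all probes was not taken in the fits without that mouse. The medians of the 10 markers were -0.0036 and -0.01 in KO versus WT with and without that mouse. The filament gene Vim, shared by reactive astrocytes, tanycytes and vessels, was fitted 0.35 higher in KE versus WT (standard error 0.07, adjusted p = 0.0624, limma). It was 0.31 higher in trained WT versus WT (adjusted p = 0.0934), with 0.18 and 0.14 when the slide was a block. Others were lower: Aspg by -0.33 in trained WT versus WT (adjusted p = 0.0934, limma), and S1pr3 by -0.28 there and -0.31 in KE versus WT (adjusted p = 0.135 and 0.0846). At an unadjusted p of at most 0.05, limma gave 2 of the 11 higher and 2 lower in trained WT versus WT, beside 26.0% of all probes. In KE versus WT it gave 1 higher and 2 lower, beside 30.4%.

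**Figure D4:**
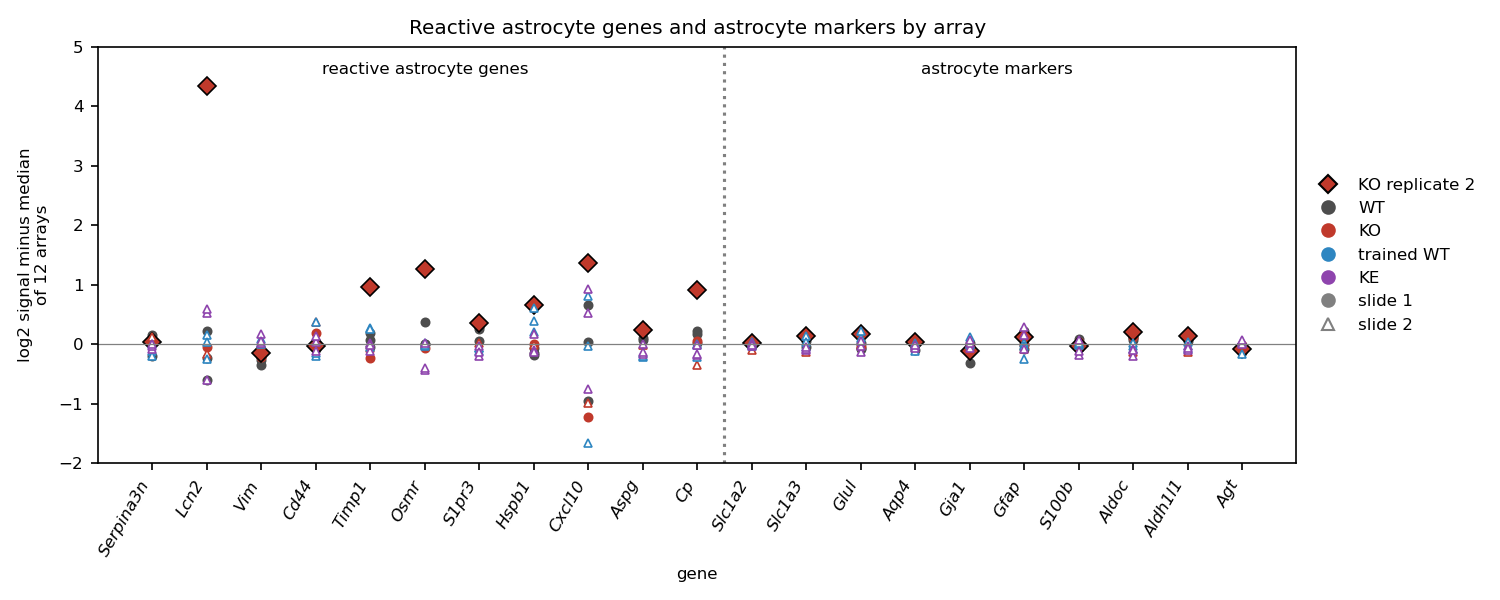
Log2 signal minus the median of the 12 arrays for the 11 tested reactive astrocyte genes (left) and the 10 astrocyte markers (right); colours are groups, circles slide 1, triangles slide 2, and the diamond is KO replicate 2. The diamond stands above all other arrays for Lcn2, Timp1, Osmr, Hspb1, Cxcl10 and Cp, and the markers stay within 0.53 log2 units.

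Tanycytes, the radial glia of the third ventricle floor, express several of the 10 markers, and their own markers were read beside them. All 10 tanycyte markers were fitted lower in KE versus KO, where 41.5% of all probes were fitted higher, with a median of -0.24 and 0 past adjustment. With the slide as a block, which sets KE against KO replicate 3 alone, 9 of 10 were lower with a median of -0.18. In that fit 44.9% of all probes were higher. Of these markers, Gpr50 and Scn7a were dim, each well above background on 10 of the 12 arrays. Dio2, the deiodinase that activates thyroid hormone, was the lowest at -0.61 (standard error 0.11, adjusted p = 0.0983, limma), or -0.34 with the block. Its interaction value was -0.80 (adjusted p = 0.479). In KE versus trained WT 1 of the 10, Crym, a thyroid hormone binder, passed the screening criterion at -1.05 (standard error 0.45, adjusted p = 0.742), beside 0.253% of all probes. Crym read 10.22, 10.65 and 12.34 in trained WT and 10.11, 10.03 and 9.90 in KE mice. Its value thus leaned on trained WT replicate 3, the highest array, and was not tested without it. The mean log2 signal of this list ran from 8.35 to 8.53 in WT, 8.45 to 8.72 in KO, 8.33 to 8.49 in trained WT and 8.08 to 8.45 in KE mice, while that of the 10 astrocyte markers ran from 13.43 to 13.46, 13.39 to 13.50, 13.43 to 13.46 and 13.35 to 13.47. That of 12 neuron markers ran from 14.41 to 14.50, 14.40 to 14.44, 14.43 to 14.56 and 14.38 to 14.47. The part of these other cells in the astrocyte values was not tested.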

How the data were processed

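For each one-colour Agilent array the authors deposited spot intensity, background-subtracted by Feature Extraction 10.7.1.1 with nothing done between arrays, and a GeneSpring table in which the authors' log2 values, quantile-normalized across the 12 arrays, stand next to raw intensity. That log2 table was used, and the raw intensity in it lay within 0.01 log2 units of the scanner signal for 56513 to 56588 of 56605 probes per array. The authors' comparison tables, which hold fold changes and p-values, and 24 columns of values in them were not used. RNA had been isolated with the mirVana kit. Coordinates come from the annotation deposited with the array (mm9).

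A probe counted as well above background on an array when at least 0.5 of its spots were, and was tested when this held on all 3 arrays of at least 1 group, which kept 35230 probes. A model of 4 group means was fitted with limma 3.58.1 in R 4.3.3 over all 12 arrays, for 5 comparisons and the swimming by genotype interaction, with Benjamini-Hochberg adjustment over all tested probes. A gene stands by its tested probe with the highest mean log2 value. Precision is limited by the number of arrays, 3 in a group. The fit of 4 group means was tried on simulated data without a slide effect, and the slide block on simulated data with a slide effect. This trial does not show how the fit of 4 group means behaves where slides differ.

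The text names all 10 members; of the other astrocyte, reactive astrocyte and tanycyte lists, genes among the 2 largest fitted rises and 2 largest falls where any passed an unadjusted p of 0.05; and the 5 genes with the pattern most like the members. Steap4 and the reactive genes described for KO replicate 2, high there or not, were named after their values were seen. Members and lists were chosen with earlier results of these data known. Alternatives were the scanner signal with quantile, 75th percentile or normexp processing (offset 50), other detection filters, array weights, a trended prior, the methods' t-test, a fit restricted to both groups of a comparison, slide and replicate blocks, probes averaged per gene, and leaving out each array. The slide block joined with percentile scaling, and list medians and genes without KO replicate 2 or list medians without KO replicate 3, were added after the data were seen. Figures were made with Python 3.11.15 and matplotlib 3.10.9.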

Additional observations from a re-analysis of the deposited data

How the results depend on the processing

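No gene of the 10 reached the screening criterion under any alternative (0 in each of 6 comparisons). The count with an adjusted p under 0.05 stayed at 0 in KO versus WT, trained WT versus WT, KE versus trained WT and the interaction. In KE versus KO it was 3 with array weights (Slc1a3, Aldh1l1 and Aldoc, all fitted lower) and between 0 and 2 when single arrays were left out, 2 without KO replicate 3. In KE versus WT it was 2 with the methods' t-test, 1 in the fit on the groups compared, 2 with array weights, and between 0 and 2 when single arrays were left out, 2 again without KO replicate 3; Aldoc was in each, with Aldh1l1 where there were 2. Between 13.8% and 34.5% of all probes were called in these fits. For KE versus KO and KE versus WT it was 0 with the slide as a block. Of 1510 fold changes under alternatives, 1429 stayed within the replicate spread, 12 gained the call just named and 69 moved by more than that spread without a call, chiefly with the slide as a block (16, or 21 with percentile scaling) and with probes averaged per gene (15). The sign of a member's fold change turned in 17 of 60 pairs of gene and comparison with the slide block, 17 with probes averaged per gene, 10 with normexp, 8 with 75th percentile scaling and 7 with the scanner signal quantile-normalized.

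The replicate number did not pair the mice: deviations from the group means correlated between -0.19 and 0.24 in arrays of the same number and between -0.26 and 0.24 in others. With the replicate number as a block the count of called members was 0 in all 6 comparisons. A fit within 1 slide could not be made for trained WT or KE versus WT. For the interaction, the fit on the groups compared is the main one, and the t-test was not run. Signal over background limited 8 of 29 probes, which were not tested.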

Other observations

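Other glial and neighbouring cell types were read from the same arrays, and 0 genes of these lists had an adjusted p under 0.05 in limma. In KO versus WT all 8 ependymal markers were fitted higher (median 0.12) and all 9 oligodendrocyte markers lower (median -0.12), where 46.1% of all probes were fitted higher. With the slide as a block these were 8 of 8 higher (0.17) and 8 of 9 lower (-0.12), where 49.9% of all probes were higher. Choroid plexus markers were fitted higher in trained WT versus WT for 7 of 7 tested genes, with a median of 0.31, where 41.4% of all probes were. These groups lay on different slides, so swimming and slide cannot be told apart there. In KE versus trained WT 7 of 7 were fitted lower with a median of -0.19, where 46.9% of all probes were fitted higher.

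All 7 striatal neighbour markers were fitted lower in KE versus trained WT, with a median of -0.58, where 46.9% of all probes were fitted higher. At an unadjusted p of at most 0.05, limma gave 2 of the 7, beside 6.66% of all probes. Their mean log2 signal ran from 9.11 to 10.25 in trained WT and from 9.03 to 9.04 in KE mice. The lowest trained WT array thus lay near the KE mice, and the comparison was not tested without the highest. The 10 astrocyte markers had a median of -0.03 in the same comparison.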
